A study of Caenorhabditis elegans with 6 samples.

Results

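The transcripts of 10 genes of the DBL-1/BMP body-size pathway of Caenorhabditis elegans were followed in RNA from whole adult worms. The genes are dbl-1, lon-2, drag-1, sma-10, sma-6, daf-4, sma-2, sma-3, sma-4 and sma-9. They were taken by name from the count table, and all 10 were found among the 22407 genes with counts. They were chosen by name, with their counts and log2 fold changes in the comparison below already known. Their differences between the groups are therefore given as a description. Calls counted over them further on stand only beside the share of all genes called, and nothing is supported with them.

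There were 3 libraries labelled gtr-1 RNAi and 3 labelled EV. Worms of both groups were of strain AM140, whose transgene rmIs132 [unc-54p::Q35::YFP] drives a polyglutamine fused to a yellow fluorescent protein from the promoter of the body wall muscle myosin gene unc-54. The gtr-1 RNAi worms ate HT115 bacteria directed against the 3' end of the transcript of gtr-1, a G protein-coupled receptor gene, and the EV worms ate HT115 with an empty vector. Parents and progeny were kept on the same bacteria at 20 °C, and pools of generation 2 were harvested on day 6 of adulthood. The worms were washed daily to remove their progeny. The title of the series names the question, how a neuronal receptor of this class bears on neuropeptides and on protein quality control elsewhere in the body.

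The bone morphogenetic protein (BMP) branch of the transforming growth factor beta family sets body size in the worm. The ligand DBL-1 comes largely from neurons, and the receptors and Smads that carry its signal act in the hypodermis, the skin of the animal. Worms with too little signal are small (Sma) and worms with too much are long (Lon), and many of the genes carry these names. The same pathway also acts in male tail patterning, mesoderm fate, lipid stores and immunity.

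Each library held between 33254426 and 41902475 counts. For gtr-1 itself, the gtr-1 RNAi libraries held 20, 24 and 19 counts in replicates 1, 2 and 3, against 16, 25 and 20 in EV replicates 1, 2 and 3 (log2 fold change -0.010 ± 0.28 SE, edgeR adjusted p = 0.986), so the targeted transcript was not lower and the libraries are named by their labels. On the first principal component of log2 CPM (counts scaled to a common library total), which held 72.7% of the variance, gtr-1 RNAi replicates 1, 2 and 3 lay at 41.8, 59.9 and -6.62, and EV replicates 1, 2 and 3 at -19.2, -35.3 and -40.6. Replicate 3 of gtr-1 RNAi thus stood nearer to the EV libraries than to its own group, and values that turn on it are given with and without it. Whether the libraries came from separate cultures is not in the labels. A p-value here therefore sets the group difference only against the variation among these libraries, and that variation may be technical. Markers of hypodermis, neurons, intestine, muscle, pharynx and germline were present, while the 10 sperm genes summed to 2.36 to 5.99 CPM in gtr-1 RNAi libraries and 2.89 to 6.14 CPM in EV libraries.

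Of the 10 genes, all chosen with this contrast known, the groups lay furthest apart, relative to the SE, for sma-9. The gene sma-9 encodes a zinc finger protein related to Schnurri of flies, which works with Smads on transcription. The gene (WBGene00004862) spans bases 10769282 to 10782973 of chromosome X in the build WBcel235, + strand, with 16 annotated transcripts that merge into 24 exons and 7732 exon bases. Reads assigned to sma-9 numbered 2768, 2891 and 3350 in gtr-1 RNAi replicates 1, 2 and 3, against 3577, 3909 and 3380 in EV replicates 1, 2 and 3. Adjusted for library size with TMM factors, its levels were 78.2, 72.5 and 82.0 CPM in the gtr-1 RNAi libraries and 95.02, 99.0 and 98.6 CPM in the EV libraries. All 3 gtr-1 RNAi libraries lay below all 3 EV libraries, and gtr-1 RNAi replicate 3 was the nearest to EV. The mean was 77.6 ± 4.79 CPM under gtr-1 RNAi and 97.5 ± 2.19 CPM under EV (SD, n = 3 each), a log2 fold change of -0.33 ± 0.05 SE by edgeR. Leaving out 1 library at a time moved it between -0.37, reached when gtr-1 RNAi replicate 3 was dropped, and -0.28. In whole animals, fewer cells that express a gene and less RNA per cell cannot be told apart, here and in all results below. In the authors' deposited table, sma-9 had normalized counts of 2965, 2760 and 3070 under gtr-1 RNAi, against 3562, 3698 and 3716 under EV, in the same order of replicates.

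**Figure D1:**
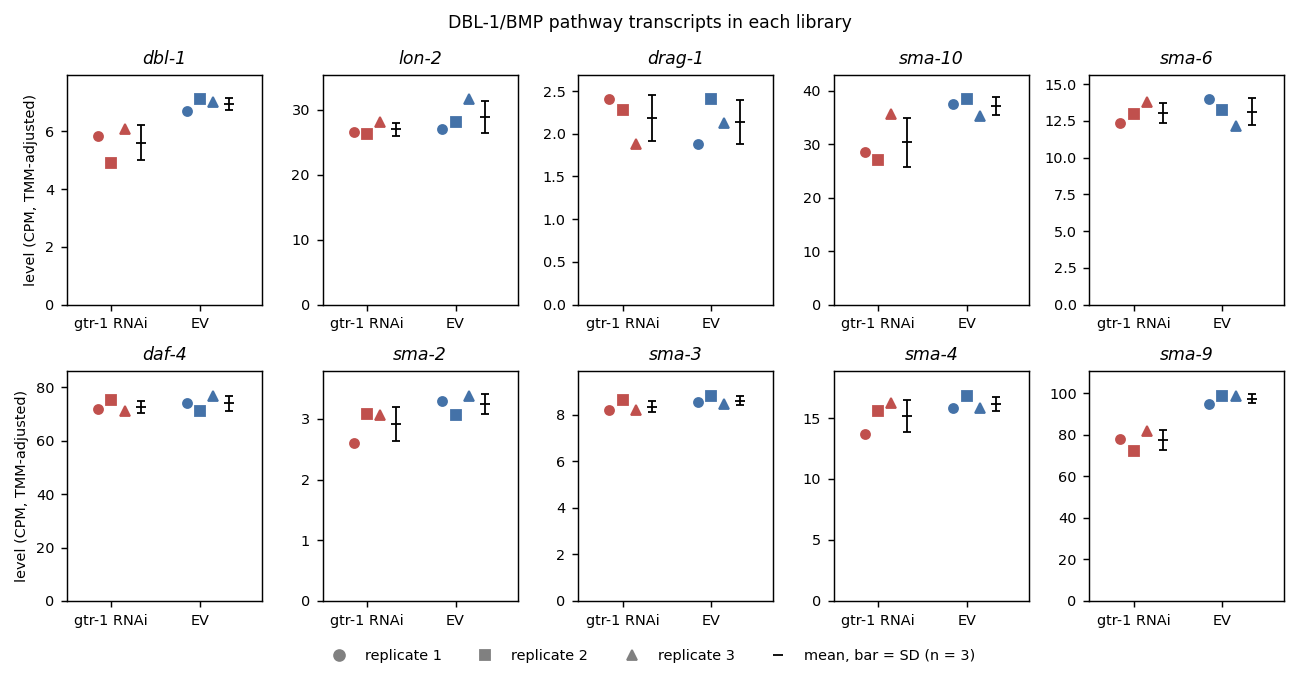
Level of each of the 10 genes in TMM-adjusted CPM (vertical axes, from 0) in the 3 gtr-1 RNAi libraries (left in each panel) and the 3 EV libraries (right). Points are libraries, and the bar beside them is the mean ± SD (n = 3). The groups do not overlap for sma-9, at 72.5 to 82.0 CPM under gtr-1 RNAi and 95.02 to 99.0 CPM under EV, nor for dbl-1, while they overlap for the other 8 genes. Of all genes, 19.6% have every gtr-1 RNAi library below every EV library.

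The ligand gene dbl-1 was the only other one of the 10 whose groups did not overlap. Such separation, with gtr-1 RNAi lower, was seen in 19.6% of all genes. The gene (WBGene00000936) spans bases 6758135 to 6760418 of chromosome V, + strand, in 8 exons. Its levels were 5.85, 4.92 and 6.07 CPM in gtr-1 RNAi replicates 1, 2 and 3, against 6.72, 7.12 and 7.03 CPM in EV replicates 1, 2 and 3. The gap between the groups was 0.648 CPM, narrower than the range within gtr-1 RNAi, with means of 5.61 ± 0.614 CPM under gtr-1 RNAi and 6.96 ± 0.208 CPM under EV (SD, n = 3 each). The log2 fold change was -0.31 ± 0.12 SE, or -0.21 with gtr-1 RNAi replicate 2 left out and -0.37 with gtr-1 RNAi replicate 3 left out. The library counts behind these levels were 196 to 248 under gtr-1 RNAi and 241 to 281 under EV. Counting alone gives a spread of 6.49% at the mean count of dbl-1, while the observed coefficient of variation was 10.9% under gtr-1 RNAi and 2.99% under EV.

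Genes that act on the ligand or the receptors outside the cell differed among themselves. The gene sma-10 encodes a transmembrane LRIG-family protein that promotes signalling through the receptors, and spans bases 274420 to 279943 of chromosome IV, + strand. Its levels were 28.5, 27.01 and 35.7 CPM in gtr-1 RNAi replicates 1, 2 and 3, against 37.6, 38.5 and 35.2 CPM in EV replicates 1, 2 and 3. Replicates 1 and 2 of gtr-1 RNAi were lower than every EV library, while gtr-1 RNAi replicate 3 lay above EV replicate 3. The mean was 30.4 ± 4.64 CPM under gtr-1 RNAi and 37.1 ± 1.67 CPM under EV (SD, n = 3 each). The log2 fold change was -0.29 ± 0.11 SE with 6 libraries and -0.42 without gtr-1 RNAi replicate 3. The glypican gene lon-2 (chromosome X, bases 4738964 to 4749083, - strand), whose product holds the signal back, was at 26.5, 26.3 and 28.2 CPM in gtr-1 RNAi replicates 1, 2 and 3, against 26.99, 28.1 and 31.6 CPM in EV replicates 1, 2 and 3. Its mean was 27.01 ± 1.02 CPM under gtr-1 RNAi and 28.9 ± 2.42 CPM under EV (SD, n = 3 each; log2 fold change -0.10 ± 0.08 SE). The groups overlapped, and without EV replicate 3, the highest library, the log2 fold change was -0.028. The gene drag-1 (chromosome I, bases 1680446 to 1685203, + strand), which encodes a membrane-anchored protein of the RGM (repulsive guidance molecule) family that promotes the signal, was at 2.40, 2.28 and 1.89 CPM in gtr-1 RNAi replicates 1, 2 and 3, against 1.89, 2.41 and 2.13 CPM in EV replicates 1, 2 and 3. The libraries of drag-1 were interleaved, with a mean of 2.19 ± 0.27 CPM under gtr-1 RNAi and 2.14 ± 0.26 CPM under EV (SD, n = 3 each; log2 fold change 0.031 ± 0.18 SE). Its 71 to 95 counts per library give a counting spread of 11.04%, and the observed spread was 12.3% under gtr-1 RNAi and 12.1% under EV. A log2 fold change of the size of its SE, 0.18, was not resolved at this depth.

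The receptor genes did not separate the groups. The type I receptor gene sma-6 (chromosome II, bases 6324484 to 6327355, + strand) was at 12.4, 12.99 and 13.8 CPM in gtr-1 RNAi replicates 1, 2 and 3, against 13.97, 13.3 and 12.1 CPM in EV replicates 1, 2 and 3. The type II receptor gene daf-4 (chromosome III, bases 5625135 to 5632323, + strand), whose product also serves the dauer branch of the TGF-beta family, was at 71.9, 75.3 and 71.2 CPM in gtr-1 RNAi replicates 1, 2 and 3, against 74.1, 71.2 and 77.0 CPM in EV replicates 1, 2 and 3. The libraries of both groups were interleaved for these genes. The log2 fold changes were -0.0090 ± 0.09 SE for sma-6 and -0.025 ± 0.04 SE for daf-4, and their signs changed with the library left out.

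The Smad genes, which encode the intracellular carriers of the signal, overlapped between the groups too. Of the receptor-regulated Smads, sma-2 (chromosome III, bases 8749680 to 8757089, + strand) was at 2.60, 3.09 and 3.06 CPM in gtr-1 RNAi replicates 1, 2 and 3, against 3.29, 3.06 and 3.38 CPM in EV replicates 1, 2 and 3. Its mean was 2.92 ± 0.273 CPM under gtr-1 RNAi and 3.25 ± 0.165 CPM under EV (SD, n = 3 each; log2 fold change -0.15 ± 0.15 SE). The EV libraries were the higher ones on average, by about the size of the SE. The other receptor-regulated Smad gene, sma-3 (chromosome III, bases 6860974 to 6863968, - strand), was at 8.20, 8.63 and 8.20 CPM in gtr-1 RNAi replicates 1, 2 and 3, against 8.55, 8.81 and 8.43 CPM in EV replicates 1, 2 and 3. Its means differed by less than the SE, at 8.34 ± 0.248 CPM under gtr-1 RNAi and 8.60 ± 0.195 CPM under EV (SD, n = 3 each; log2 fold change -0.044 ± 0.09 SE). The co-Smad gene sma-4 (chromosome III, bases 5816232 to 5820204, + strand), whose product joins the receptor-regulated Smads, was at 13.7, 15.6 and 16.2 CPM in gtr-1 RNAi replicates 1, 2 and 3, against 15.9, 16.8 and 15.8 CPM in EV replicates 1, 2 and 3. Only gtr-1 RNAi replicates 1 and 2 lay below every EV library, with means of 15.2 ± 1.33 CPM under gtr-1 RNAi and 16.2 ± 0.589 CPM under EV (SD, n = 3 each; log2 fold change -0.092 ± 0.09 SE). Leaving out 1 library at a time moved the log2 fold change of sma-2 between -0.19 and -0.077 and that of sma-3 between -0.061 and -0.022. That of sma-4 was -0.14 without gtr-1 RNAi replicate 3 and -0.020 without gtr-1 RNAi replicate 1. In TMM-adjusted CPM the lowest library was gtr-1 RNAi replicate 1 in each of the Smad genes. For sma-3 it lay only just below gtr-1 RNAi replicate 3, at 8.195 against 8.203 CPM. For sma-2, exons of aak-1 and ugtp-1 on the opposite strand cover 152 of its 1702 exon bases. If the counting ignored strand, reads in those bases may affect its 92 to 125 counts per library, in a direction not known here.

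**Figure D2:**
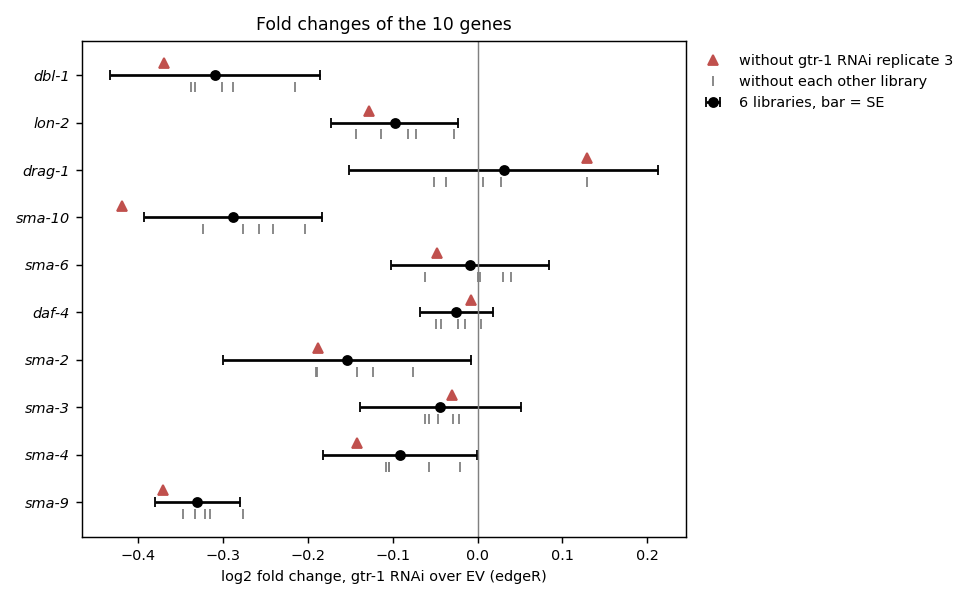
Log2 fold change of gtr-1 RNAi over EV (horizontal axis, edgeR) for the 10 genes. Black points are the fit of 6 libraries with its SE, red triangles leave out gtr-1 RNAi replicate 3, and grey ticks leave out each other library. Values of sma-9, dbl-1 and sma-10 lie between -0.42 and -0.20 in every fit drawn, and those of drag-1, sma-6 and daf-4 fall on both sides of 0.

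Across the 10 genes, the median log2 fold change was -0.095, and 9 of the 10 values were negative, beside a median of -0.0025 over the 14683 genes tested. The edgeR quasi-likelihood test, with Benjamini-Hochberg adjustment over all genes and a threshold of 0.05, called 0 of the 10, as it called 0.00% of all genes. At an unadjusted p under 0.05 it gave 3 of the 10 lower, dbl-1, sma-10 and sma-9, and 0 higher, where 15.3% of all genes were lower and 12.9% higher. DESeq2 called 1 of the 10 lower, sma-9 (log2 fold change -0.32 ± 0.07 SE), and 0 higher, beside 7.57% of all genes lower and 6.65% higher. Without gtr-1 RNAi replicate 3, both edgeR and DESeq2 called sma-9 and sma-10 lower, 2 of the 10, where edgeR called 14.99% of all genes lower and 8.77% higher, and DESeq2 12.9% lower and 9.99% higher. Limma-voom with sample quality weights called 4 lower, dbl-1, sma-4, sma-9 and sma-10, beside 21.6% of all genes lower and 16.1% higher. No overlap in CPM, with gtr-1 RNAi lower, was seen in 2 of the 10 genes and in 19.6% of all genes, and the reverse in 0 of the 10 and in 16.6% of all genes. Since the genes were put forward with this contrast known, these counts are read as no result.

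Ratios between genes within a library do not depend on how libraries are scaled. Against daf-4, which with sma-9 had the most counts of the 10, sma-9 had 109, 96.3 and 115 counts per 100 daf-4 counts in gtr-1 RNAi replicates 1, 2 and 3, and 128, 139 and 128 in EV replicates 1, 2 and 3. In this ratio the gtr-1 RNAi libraries lay below the EV libraries. It uses the sma-9 counts given above and is no separate support for them. In CPM, 19.6% of all genes had every gtr-1 RNAi library below every EV library. Per 100 counts of sma-2, sma-3 and sma-4 together, sma-9 had 319.6, 266 and 298 counts in gtr-1 RNAi replicates 1, 2 and 3, and 343, 345 and 357 in EV replicates 1, 2 and 3. The ligand gene dbl-1 had 8.13, 6.53 and 8.53 counts per 100 daf-4 counts under gtr-1 RNAi, and 9.06, 10.00 and 9.14 under EV, with no overlap. The type I receptor gene sma-6 had 17.2, 17.3 and 19.3 counts per 100 of the type II receptor gene under gtr-1 RNAi, and 18.8, 18.6 and 15.8 under EV, with overlap. The partner genes in these ratios were chosen after their values were seen.

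**Figure D3:**
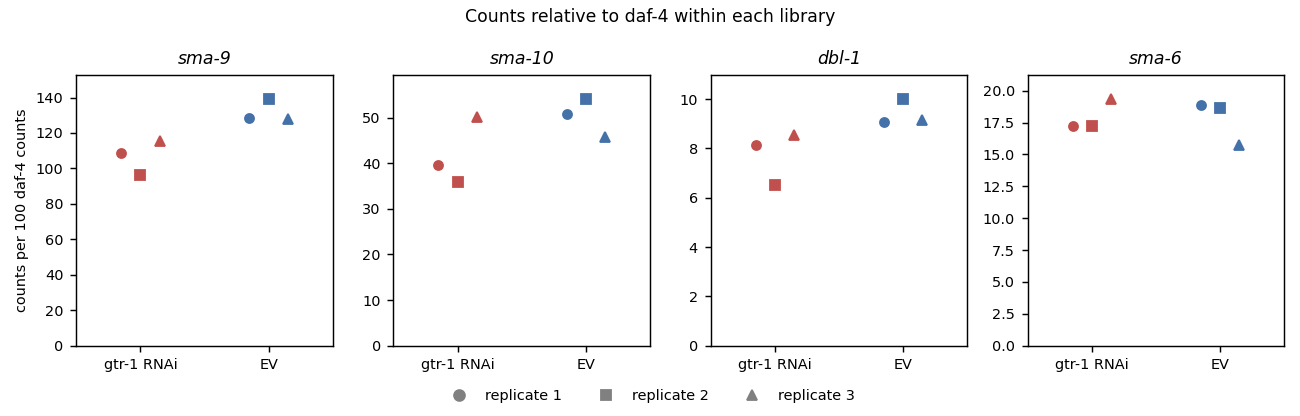
Counts of sma-9, sma-10, dbl-1 and sma-6 per 100 daf-4 counts (vertical axes, from 0) in the gtr-1 RNAi libraries (left in each panel) and the EV libraries (right). For sma-9 the gtr-1 RNAi libraries reach 115 at most and the EV libraries start at 128, while the groups overlap for sma-10 and sma-6.

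Levels of different genes were compared per length, as CPM per kilobase of merged exon. The receptor gene daf-4 was the highest, at 23.5 ± 0.709 CPM per kb under gtr-1 RNAi and 23.9 ± 0.933 CPM per kb under EV (SD, n = 3 each), and 64.7% of tested genes were lower. The glypican gene lon-2 followed at 14.1 ± 0.533 CPM per kb under gtr-1 RNAi and 15.1 ± 1.26 CPM per kb under EV. Next came sma-9, at 10.0 ± 0.62 CPM per kb under gtr-1 RNAi and 12.6 ± 0.283 CPM per kb under EV, and sma-10, at 10.1 ± 1.54 CPM per kb under gtr-1 RNAi and 12.3 ± 0.556 CPM per kb under EV, and the library values of this pair overlapped. All 4 lay above the median of tested genes, 8.26 CPM per kb.

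The Smads were unequal. Over the 6 libraries, sma-4 averaged 8.32 ± 0.568 CPM per kb, sma-3 6.50 ± 0.187 and sma-2 1.81 ± 0.16 (SD, n = 6), with no overlap of library values between these genes. The type I receptor gene sma-6, at 6.14 ± 0.344 CPM per kb, could not be separated from sma-3 by its library values. The ligand gene dbl-1 was at 3.64 ± 0.488 CPM per kb. The library values of drag-1, the lowest at 1.51 ± 0.167 CPM per kb, overlapped with those of sma-2. The ratio of the highest to the lowest mean was 15.7. The order of the 10 genes was the same with the longest transcript as the length and with library size alone as the scaling. Exon bases not used in adult worms would lower such a level, which bears on sma-9 with its 16 transcripts.

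**Figure D4:**
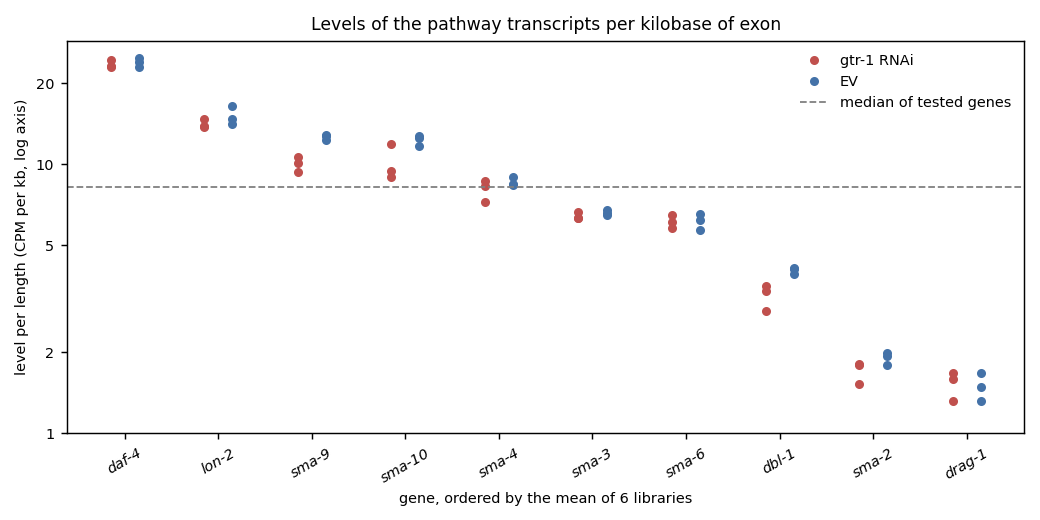
Level per length in CPM per kb of merged exon (vertical log axis) for the 10 genes, ordered by the mean of 6 libraries. Points are libraries, gtr-1 RNAi left of EV, and the dashed line is the median of tested genes, 8.26 CPM per kb. The type II receptor gene daf-4 is highest and drag-1 lowest.

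The 10 genes are spread over the genome, with 4 on chromosome III (daf-4, sma-2, sma-3 and sma-4), 2 on X (lon-2 and sma-9) and 1 each on I, II, IV and V. No exon of another gene shares their exons on the same strand. On the opposite strand, 47 of the 7732 exon bases of sma-9 lie under clc-4 and 9 of the 1727 of dbl-1 under T25F10.4. All of them passed the filter on low counts.

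Libraries were not ordered alike for all 10 genes. In TMM-adjusted CPM, the lowest library was gtr-1 RNAi replicate 2 for dbl-1, lon-2, sma-10 and sma-9. It was gtr-1 RNAi replicate 1 for the 3 Smad genes, gtr-1 RNAi replicate 3 for daf-4 and drag-1, and EV replicate 3 for sma-6. In the authors' normalized counts, gtr-1 RNAi replicate 3 was the lowest for sma-3, at 307 against 311 in gtr-1 RNAi replicate 1. For daf-4, EV replicate 2 was the lowest there, at 2659 against 2663 in gtr-1 RNAi replicate 3. In TMM-adjusted CPM the highest library was an EV library for all 10, and the share of all genes with this order is not given here. For drag-1 this rested on 2.406 CPM in EV replicate 2 against 2.402 CPM in gtr-1 RNAi replicate 1. In the authors' normalized counts of drag-1, gtr-1 RNAi replicate 1 was the highest, at 91.1 against 89.9 in EV replicate 2. Among 10439 named genes with a mean log2 CPM over 1, the patterns most like that of sma-9 over the 6 libraries were those of C53C11.5 (Pearson r = 0.999), fkb-6 (0.995), clec-55 (0.995), Y17D7B.4 (0.994) and lipl-4 (0.993). The most opposed were those of F59B10.3 (-0.999), bath-30 (-0.997), supr-1 (-0.997), C15F1.1 (-0.996) and cri-2 (-0.995). These are correlations over 6 libraries that share the group difference and the order on the first component, and 11.8% of the genes compared had r over 0.9 with sma-9. Among the 10 genes, dbl-1 had r = 0.969 and sma-10 r = 0.879 with sma-9, and drag-1 r = -0.177.

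Other genes of the pathway were taken from lists written from general knowledge, 34 genes in all. The edgeR test called 0 of them, with 10 lower and 3 higher at an unadjusted p under 0.05, where 15.3% of all genes were lower and 12.9% higher. DESeq2 called 4 lower and 2 higher, and 28 were not called, beside 7.57% of all genes called lower and 6.65% higher. These shares are the background for the counts in each list below. Fold changes given for single genes of these lists are those of DESeq2, and list medians are those of edgeR. Of 11 other genes of the DBL-1 pathway, DESeq2 called 2 lower and 1 higher, and their median log2 fold change was -0.043. The tetraspanin gene tsp-14, whose product promotes the signal at the membrane, was at 5.68, 5.29 and 9.43 CPM in gtr-1 RNAi replicates 1, 2 and 3, against 11.9, 14.7 and 14.8 CPM in EV replicates 1, 2 and 3. Every gtr-1 RNAi library was below every EV library, and DESeq2 called it lower, with a log2 fold change of -1.01 ± 0.21 SE (adjusted p = 0.000289, and edgeR adjusted p = 0.112). DESeq2 called tsp-14 in all 6 fits that left out 1 library.

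The gene mab-31, which acts with the pathway in the male tail, was called lower by DESeq2, at 25.5 ± 1.28 CPM under gtr-1 RNAi, against 31.6 ± 3.41 CPM under EV (SD, n = 3 each; log2 fold change -0.30 ± 0.10 SE, DESeq2 adjusted p = 0.0320, edgeR adjusted p = 0.112). The gene adt-2, which encodes a secreted ADAMTS protease, was called higher by DESeq2, at 28.0 ± 2.72 CPM under gtr-1 RNAi and 21.7 ± 2.56 CPM under EV (log2 fold change 0.38 ± 0.12 SE, DESeq2 adjusted p = 0.0208, edgeR adjusted p = 0.117). Their groups did not overlap, and DESeq2 kept both calls without EV replicate 1 or gtr-1 RNAi replicate 3 and lost them without any of the other 4 libraries. The netrin receptor gene unc-40, whose product also binds DRAG-1, was at 197 ± 3.43 CPM under gtr-1 RNAi and 189 ± 9.71 CPM under EV (log2 fold change 0.07 ± 0.06 SE, DESeq2 adjusted p = 0.453). The salt-inducible kinase gene kin-29 was at 31.3 ± 0.731 CPM under gtr-1 RNAi and 32.1 ± 1.56 CPM under EV (log2 fold change -0.02 ± 0.08 SE, DESeq2 adjusted p = 0.888).

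Of 12 other genes of the TGF-beta family, dauer branch and lone ligands included, DESeq2 called 0, as did edgeR, with 4 lower at an unadjusted p under 0.05. The ligand gene unc-129, which acts in axon guidance and is named after its values were seen, was at 9.49, 9.004 and 18.5 CPM in gtr-1 RNAi replicates 1, 2 and 3, against 22.1, 21.3 and 32.3 CPM in EV replicates 1, 2 and 3. Its groups did not overlap, with a log2 fold change of -1.03 ± 0.39 SE (DESeq2 adjusted p = 0.0530, edgeR adjusted p = 0.137), and without gtr-1 RNAi replicate 3 it was called lower by both tools. The dauer ligand gene daf-7 was at 4.61, 3.16 and 4.48 CPM in gtr-1 RNAi replicates 1, 2 and 3, against 4.33, 4.05 and 2.54 CPM in EV replicates 1, 2 and 3 (log2 fold change 0.17 ± 0.26 SE, DESeq2 adjusted p = 0.727). By DESeq2, dropping EV replicate 3 turned the log2 fold change of daf-7 to -0.025, and dropping gtr-1 RNAi replicate 2 gave 0.33. The median log2 fold change of the 12 was -0.063.

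Among 7 genes known to respond to DBL-1, DESeq2 called 1 higher and 0 lower. The list holds 2 genes that the pathway represses and 5 that it activates, so their median log2 fold change, 0.34, pools genes with opposite responses. The gene lon-1, which encodes a secreted CRISP-family protein and is repressed by the pathway, was at 76.0, 84.7 and 61.9 CPM in gtr-1 RNAi replicates 1, 2 and 3, against 56.2, 61.2 and 58.4 CPM in EV replicates 1, 2 and 3. All gtr-1 RNAi libraries were higher, gtr-1 RNAi replicate 3 by a small margin over EV replicate 2. The log2 fold change was 0.35 ± 0.11 SE (DESeq2 adjusted p = 0.0208, edgeR adjusted p = 0.131), and of the 6 fits with 1 library left out DESeq2 called lon-1 only in that without gtr-1 RNAi replicate 3. The other repressed gene, spp-9, was at 3.71 ± 1.29 CPM under gtr-1 RNAi and 4.22 ± 1.04 CPM under EV (SD, n = 3 each; log2 fold change -0.17 ± 0.29 SE, DESeq2 adjusted p = 0.756). The 5 activated genes were not called, and their log2 fold changes had both signs. They were 0.71 ± 0.75 SE for the antimicrobial peptide gene cnc-2, 0.47 ± 0.68 SE for the collagen gene rol-6, 0.47 ± 0.63 SE for the collagen gene col-41, -0.15 ± 0.08 SE for the desaturase gene fat-6 and -0.64 ± 0.46 SE for the desaturase gene fat-7. The groups overlapped in all 5, and DESeq2 gave rol-6 and col-41 no adjusted p. Counts per library were 6 to 21 for rol-6, 7 to 34 for col-41 and 30 to 118 for fat-7. They were 214 to 1576 for cnc-2 and 12248 to 17074 for fat-6. Low counts therefore limit what rol-6, col-41 and fat-7 could show.

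**Figure D5:**
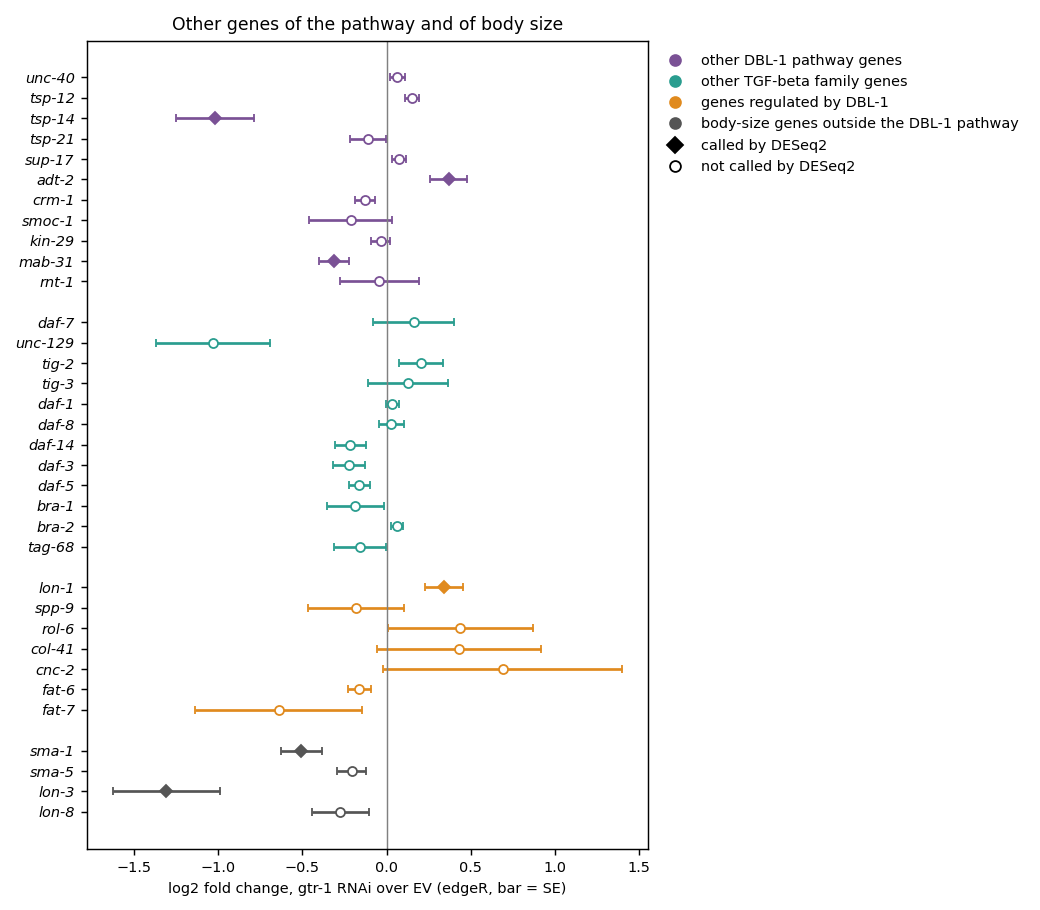
Log2 fold change of gtr-1 RNAi over EV (horizontal axis, edgeR, bar = SE) of 34 genes in 4 lists. Filled diamonds are the 6 genes called by DESeq2, with tsp-14, mab-31, sma-1 and lon-3 lower and adt-2 and lon-1 higher, and open circles are not called.

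Of 4 genes listed from general knowledge as setting body size outside the pathway, DESeq2 called 2 lower. All 4 had negative log2 fold changes, with a median of -0.39. The gene sma-1, which encodes a beta-heavy spectrin, was called lower by DESeq2, at 179 ± 23.9 CPM under gtr-1 RNAi, against 255 ± 29.2 CPM under EV (SD, n = 3 each; log2 fold change -0.50 ± 0.10 SE, DESeq2 adjusted p = 0.000274, edgeR adjusted p = 0.112), and the call was lost without gtr-1 RNAi replicate 1. The cuticle collagen gene lon-3 had 27, 35 and 68 counts in gtr-1 RNAi replicates 1, 2 and 3, against 91, 97 and 116 counts in EV replicates 1, 2 and 3. Its log2 fold change was -1.31 ± 0.36 SE (DESeq2 adjusted p = 0.00649, edgeR adjusted p = 0.112), and DESeq2 called it in 2 of the 6 fits with 1 library left out, those without EV replicate 1 or gtr-1 RNAi replicate 3. Neither gene's groups overlapped.

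Marker lists of other tissues and of moulting were set beside these genes, and edgeR called 0 genes in each of them. The 11 larval moulting genes summed to 141.6 to 403 CPM in gtr-1 RNAi libraries and 493 to 765 CPM in EV libraries, and DESeq2 called 6 of the 11 lower and 0 higher, with a median log2 fold change of -1.30. The 12 hypodermis markers, of the tissue in which the receptors and Smads act, summed to 428 to 517 CPM under gtr-1 RNAi and 421 to 467 CPM under EV. Within this sum, col-19 was at 199 ± 56.1 CPM under gtr-1 RNAi and 127 ± 34.8 CPM under EV (SD, n = 3 each). In 6 of the 12, dpy-7, wrt-2, col-10, elt-3, elt-1 and nhr-25, every gtr-1 RNAi library was below every EV library, and in 3, col-19, nhr-23 and bli-1, every one was above, where such separation was seen in 19.6% of all genes lower and 16.6% higher. DESeq2 called 1 of the 12 lower, elt-1 (log2 fold change -0.74 ± 0.16 SE, adjusted p = 0.000337), and 1 higher, nhr-23 (log2 fold change 0.20 ± 0.07 SE, adjusted p = 0.0456).

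Of 11 intestine markers, which summed to 1507 to 1639 CPM under gtr-1 RNAi and 1412 to 1954 CPM under EV, DESeq2 called 3 higher and 0 lower, beside 6.65% of all genes higher. These were act-5 (log2 fold change 0.95 ± 0.24 SE, adjusted p = 0.00280), vha-6 (0.62 ± 0.14 SE, adjusted p = 0.000864) and mtl-2 (0.57 ± 0.18 SE, adjusted p = 0.0191). The 12 germline and oocyte markers summed to 13792 to 15018 CPM under gtr-1 RNAi and 13320 to 13695 CPM under EV, and these sums did not overlap. DESeq2 called 1 of them higher and 0 lower, a share near that of all genes. At an unadjusted p under 0.05, however, edgeR gave 8 of the 12 higher and 0 lower, beside 12.9% of all genes higher. In 6 of the 12 every gtr-1 RNAi library was above every EV library, and in 0 below, beside 16.6% of all genes above. The 14 pan-neuronal markers summed to 437 to 462 CPM under gtr-1 RNAi and 426 to 476 CPM under EV. Log2 fold changes were negative in 11 of the 14 (edgeR median -0.16). DESeq2 called 2 lower, unc-13 (log2 fold change -0.46 ± 0.13 SE) and unc-31 (-0.48 ± 0.17 SE), and 0 higher, beside 7.57% of all genes lower. In 3 of the 14 every gtr-1 RNAi library was below every EV library, and in 0 above, beside 19.6% of all genes below. Of the 11 body wall muscle, 7 pharynx and 10 sperm markers, DESeq2 called 0. No gene of these lists found in the table was at 0 in all libraries. The part of these transcripts in the values of sma-9, dbl-1, sma-10 and the genes called by DESeq2 was not tested.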

How the data were processed

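RNA from pools of whole worms was turned into libraries with a stranded mRNA kit, per the labels' protocols. The submitters' processing notes name STAR, HTSeq and WBcel235, and the strand setting of the counting is not given in the sources used here. The authors deposited raw counts (whole numbers for each gene), and these were tested. They also deposited a normalized signal, in which each library's counts are divided by a single factor, and it was only quoted. Count columns headed GTOL and a number were matched to titles GTR1 with the same number.

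gtr-1 RNAi was set against EV with no covariates. edgeR 4.0.16 (R 4.3.3) used filterByExpr (14683 genes kept), TMM factors and the robust quasi-likelihood F test, and its SE was taken from the fold change and F. Alternatives were DESeq2 1.42.0 on all 22407 genes with counts, which gave 12832 an adjusted p, limma-voom 3.58.1, other scalings and filters, and leaving out each library. CPM are TMM-adjusted. Fits were tested on simulated counts. Levels per length and overlaps used Ensembl annotation of WBcel235. The text names the 10 genes, other listed genes called by DESeq2 (edgeR called none), unc-40, lon-1, kin-29 and daf-7, and the 5 genes most and least correlated with sma-9 on log2 CPM (prior count 2). The genes and lists were chosen with earlier results of these data known. No sequence is printed.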

Additional observations from a re-analysis of the deposited data

How the results depend on the processing

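Over all genes, edgeR called 0 at an adjusted p under 0.05, and 0 with DESeq2 size factors, library size alone, no filter, 10 counts in 3 libraries, no robust estimation, a threshold of 0.1 or limma-voom in its place. It called 959 with the replicate number as a block, DESeq2 called 1824, DESeq2 with that block 1670, and limma-voom with sample quality weights 5537. With 1 library left out, edgeR called 0 to 3544 and DESeq2 148 to 3549, both highest without gtr-1 RNAi replicate 3. Dropping replicates 1 and 2 of gtr-1 RNAi in turn left 148 and 397 DESeq2 calls, and dropping EV replicates 1, 2 and 3 in turn left 1468, 543 and 283, while edgeR called 0 in each of these 5. Of the 10 pathway genes, the same fits called 0, and 1 with the block, 1 by DESeq2, 1 by DESeq2 with the block and 4 with quality weights. With 1 library left out, edgeR called 0 to 2 of them and DESeq2 1 to 2. Of the 34 other genes, they called 0, and 5 with the block, 6 by DESeq2, 7 by DESeq2 with the block and 14 with quality weights. With 1 library left out, edgeR called 0 to 9 of them and DESeq2 1 to 10. The cause of these differences was not tested. Same-numbered libraries had correlations of 0.24, -0.107 and 0.197 in their deviations from the group means, and unlike-numbered ones ran from -0.326 to 0.205. These values do not settle whether the numbers pair samples. The labels name no shared batch, so the main fit had no block. Over 22 settings, the log2 fold change ran from -0.39 to -0.28 for sma-9, from -0.37 to -0.21 for dbl-1 and from -0.42 to -0.20 for sma-10, and changed sign in 10 for sma-6, 5 for drag-1, 3 for daf-4 and, outside the 10, 2 for daf-7. Of the 10 genes, depth limits drag-1 and sma-2 most.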
